A study of Mus musculus with 4 samples.

Results

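The 10 genes described here encode factors that hold RNA polymerase II near promoters or carry it through genes: Ell, Ell2 and Ell3, Supt4a, Supt5 and Supt6, and Nelfa, Nelfb, Nelfcd and Nelfe. They were taken by symbol from a table of 15733 protein-coding genes, and all 10 were found in it. The table holds RNA-seq counts of mouse pachytene spermatocytes, the cells of male meiosis with synapsed autosomes. Single-cell suspensions of testis were kept ex vivo for 12 h with BMH21 at 2.5 µM or with its solvent DMSO (called mock), and pachytene cells were then sorted on Hoechst staining for DNA content. BMH21 is a DNA intercalator that blocks RNA polymerase I. Each condition has 2 libraries, described as biological replicates; the sources used here do not state the strain, genotype or age of the mice, or which suspensions share an animal.

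Shortly after initiation, RNA polymerase II commonly stops within the first stretch of a gene. This pause is held by NELF, the negative elongation factor, a complex of 4 different subunits, together with DSIF, made of SPT4 and SPT5. The kinase P-TEFb releases the polymerase by phosphorylating NELF, SPT5 and the polymerase tail, after which NELF leaves and DSIF travels on as an elongation factor. ELL proteins raise the rate of elongation and join P-TEFb in the super elongation complex, and SPT6 is a histone chaperone that travels with the elongating enzyme. In pachytene cells transcription of the autosomes is strong, while the sex chromosomes are silenced; all 10 genes lie on autosomes.

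Total counts per library ran from 30964370 to 41548269. The 10 listed markers of pachytene spermatocytes summed to 2656 to 2690 CPM (counts scaled to a common library size with TMM factors) in the 4 libraries. The 8 spermatid markers summed to 245 to 255 CPM, with Prm2 the most abundant at 64.1 CPM in mock and 65.0 in BMH21, and none of the 8 was called. Sertoli markers summed to 0.918 to 2.48 CPM (2 of 8 analysed, Amh highest) and macrophage and blood markers to 6.05 to 7.49 CPM (5 of 7 analysed, Csf1r highest). Spermatogonial markers summed to 17.9 and 19.4 CPM in mock and 14.1 and 16.9 in BMH21 (7 of 8 analysed, Gfra1 highest), and Leydig and peritubular markers to 10.2 and 10.7 against 6.85 and 8.23 (6 of 8 analysed, Star highest). Of 5 spermatogonial markers tested Zbtb16 (3.28 to 1.68 CPM, log2 fold change -0.95, edgeR adjusted p = 0.00550) and Kit (4.19 to 2.80 CPM, -0.58, adjusted p = 0.0424) were called lower. Of 4 Leydig and peritubular markers tested Star was called lower (8.97 to 6.34 CPM, -0.50, adjusted p = 0.00785). None of the 2 Sertoli and 4 macrophage and blood markers tested was called. No analysed marker was at 0 in every library. The listed markers that were not analysed were not among the 15733 genes, so their counts are not known. Within the pachytene list 3 genes were called higher (Sycp1, Sycp3 and Hormad1, of the synaptonemal complex and chromosome axis) and 5 lower (Piwil1, Mybl1, Ccna1, Pou5f2 and Ovol1). The shares over all genes tested were 16.5% and 12.5%. Exons of Chpt1 on the opposite strand overlap 52.2% of the Sycp3 exon bases. Opposite-strand genes also overlap 19.8% of those of Ovol1 (Gm31166) and 10.1% of those of Ccna1 (4931419H13Rik). The sources used here do not state whether the counting used strand. The part that these marker differences have in the results below was not tested.

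Most of the 10 mRNAs differed little between BMH21 and mock. Among the 10 factors 1 rose, Ell2, and 3 fell, Nelfcd, Nelfa and Supt5 (edgeR's quasi-likelihood test, p adjusted by Benjamini and Hochberg over 13793 genes tested, threshold 0.05). Over all genes tested 16.5% were called higher and 12.5% lower, so 1 of 10 and 3 of 10 do not stand far from the background. Ell2 alone among the 10 was called with a change of at least 2-fold; 4.07% of all genes tested were called higher by that much. The other 6 factors were not called. The median log2 fold change of the 10 was -0.06, against 0.00 over all genes tested. A difference in a sorted population can come from fewer cells of a type or from less RNA per cell, and the counts cannot tell these apart. All values are relative to the other mRNAs of the library.

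**Figure D1:**
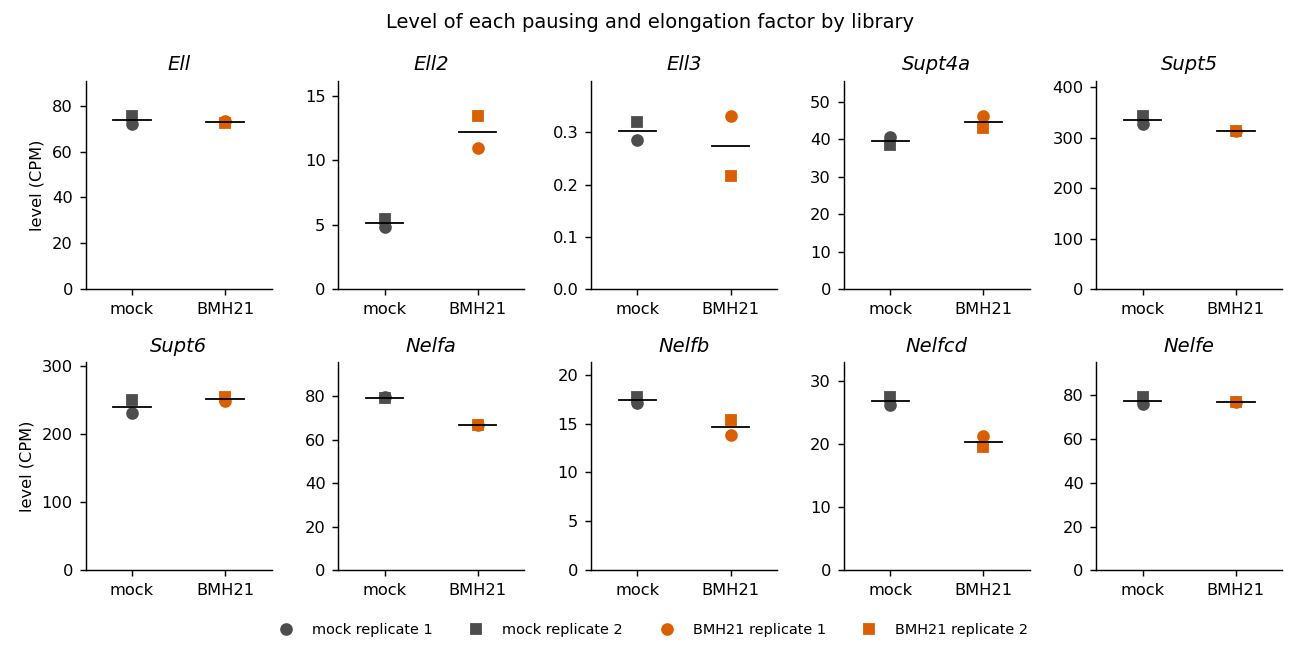
Level of each factor in CPM (vertical axes, each from 0) in the 2 mock and 2 BMH21 libraries; symbols are libraries and bars are group means. The groups are wide apart for Ell2 (4.84 and 5.41 against 11.0 and 13.4 CPM), and do not overlap for Nelfa, Nelfb, Nelfcd, Supt5 and Supt4a.

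ELL2 is the family member best known from antibody-secreting plasma cells, where it acts on the processing of immunoglobulin mRNA. Ell2 (ENSMUSG00000001542, chromosome 13, 75706757 to 75772364 on GRCm38, plus strand) had 203 and 169 counts in the mock libraries and 363 and 498 in the BMH21 libraries. In CPM these were 4.84 and 5.41 in mock and 11.0 and 13.4 in BMH21. Both BMH21 libraries lay above both mock libraries, and every BMH21 library exceeded every mock library by 1.02 to 1.47 on the log2 scale. Group means were 5.12 ± 0.403 CPM for mock and 12.2 ± 1.76 CPM for BMH21 (SD, n = 2 each). The log2 fold change was 1.26 ± 0.15 (SE), which is 2.39-fold, with an edgeR adjusted p of 1.90e-10. It ranked at the 96.1 percentile of the log2 fold changes of all genes tested. The call held under all 10 alternative settings, with log2 fold changes of 1.10 to 1.39. The authors' deposited table gives 1.26 with an adjusted p of 4.89e-09. An annotated small nucleolar RNA gene lies in 1.32% of the Ell2 exon bases and an antisense gene in 0.957%, so other annotated genes could take few of its reads.

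The promoters of Ell2, which rose, and of Nelfa and Supt5, which fell, are shown so that their letters can be compared beside the values. RefSeq (GRCm38.p6) gave a window for 8 of the 10 factors, Ell2, Nelfa and Supt5 among them. No window was available for Nelfe or for Nelfcd, the factor with the largest fall. Printed are the 250 bases before the RefSeq start, 5′ to 3′ on the gene's strand. Capitals mark the letters CCAAT (the box of that name), TGACGTCA (the cyclic AMP response element, bound by the CREB and CREM family), TATAAA (bound by TFIID), CACGTG (E box) and AACNG (core of the MYB site), on either strand. These motifs were chosen after the sequences were seen. The Ell2 window is chr13:75707234-75707483 (plus strand), that of Nelfa is chr5:33936272-33936521 (minus strand) and that of Supt5 is chr7:28338720-28338969 (minus strand).
Ell2: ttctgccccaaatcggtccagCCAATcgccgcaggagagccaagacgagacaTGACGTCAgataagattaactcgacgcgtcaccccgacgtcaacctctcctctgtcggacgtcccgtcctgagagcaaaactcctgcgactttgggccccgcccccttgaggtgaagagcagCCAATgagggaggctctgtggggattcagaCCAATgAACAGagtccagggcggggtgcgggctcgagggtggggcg
Nelfa: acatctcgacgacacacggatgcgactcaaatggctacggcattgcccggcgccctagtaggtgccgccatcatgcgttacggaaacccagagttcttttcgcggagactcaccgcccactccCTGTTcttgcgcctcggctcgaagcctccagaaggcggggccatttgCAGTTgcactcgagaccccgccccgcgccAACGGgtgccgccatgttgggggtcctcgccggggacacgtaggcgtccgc
Supt5: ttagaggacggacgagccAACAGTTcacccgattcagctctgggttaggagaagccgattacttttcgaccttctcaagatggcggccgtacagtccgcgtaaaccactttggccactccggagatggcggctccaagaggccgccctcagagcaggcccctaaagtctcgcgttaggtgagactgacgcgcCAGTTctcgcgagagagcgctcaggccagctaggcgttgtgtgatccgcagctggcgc

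The Ell2 window held 1 full TGACGTCA, whose first base lay 198 bases before the start, and 3 CCAAT boxes, at 229, 76 and 46 bases before it. None of the other 7 factors with a window held TGACGTCA, which was present in 1.55% of the 32851 RefSeq promoter windows of the same length. Of all windows 33.8% held CCAAT and 2.79% held at least 3 of them; among the factors only Ell2 and Ell3 held it, Ell3 once. The windows of Nelfa and Supt5 held neither of these, and each held 3 MYB cores, a number reached or passed in 19.3% of all windows; a pair of the Supt5 cores overlap each other. GGGCGG (GC box, not in capitals) occurred 2 times in Ell2, 2 times in Nelfa and 1 time in Supt5, without overlap with the other motifs, and in 32.7% of all windows. Annotated transcripts of Ell2, Nelfa and Supt5 in GENCODE also begin upstream of the RefSeq start used here. For Ell2 the annotated gene begins at 75706757, before the printed window. The whole Ell2 window, with its TGACGTCA and CCAAT boxes, thus lies within the annotated gene. The annotated gene begins inside the printed window for Nelfa (at 33936413) and Supt5 (at 28338746). All 3 MYB cores of Nelfa lie in the part of its window within the annotated gene. A match of letters is a description of the sequence and not a bound site.

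Ell, the founding member of the family, was by far its most abundant member and was not called. Ell (chromosome 8, 70539457 to 70592858) was at 72.0 and 75.7 CPM in mock and 73.5 and 72.4 in BMH21, with both BMH21 values inside the range of the mock values. The log2 fold change was -0.02 ± 0.05 (SE), edgeR adjusted p = 0.872. In log2 terms the ratio of Ell2 to Ell counts was -3.90 and -3.81 in mock and -2.75 and -2.43 in BMH21, a mean difference of 1.26. The groups do not overlap; an exact two-sided permutation test gave p = 0.333, the smallest that 2 against 2 libraries can give. Per kb of merged exon, Ell made up 97.4% and 97.2% of the summed level of the 3 genes in mock and 94.9% and 94.1% in BMH21. The share of Ell2 was 2.07% and 2.20% in mock and 4.47% and 5.52% in BMH21. Ell2 thus remained the minor mRNA beside Ell: the level of Ell per kb was 45.6 times that of Ell2 in mock and 18.9 times in BMH21. These factors depend on the length used, since the annotated exons of Ell2 span 9.83 kb in all but its 9 transcripts average 1.69 kb; by mean transcript length they were 13.8 and 5.71.

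ELL3 has been described as a testis-enriched ELL protein, yet Ell3 was close to the detection limit of these counts. Ell3 (chromosome 2, 121439010 to 121444278) had 12 and 10 counts in mock and 11 and 8 in BMH21. These are 0.286 and 0.320 CPM in mock and 0.332 and 0.216 in BMH21, with exact 95% Poisson intervals of 0.153 to 0.589 CPM in mock replicate 2 and 0.0932 to 0.425 in BMH21 replicate 2; they cover counting error only. The groups overlap, and the log2 fold change of -0.15 ± 0.77 (SE) was not called (edgeR adjusted p = 0.925). A difference in Ell3 was not detectable at these counts. Of the annotated exon bases of Ell3, 65.6% also belong to exons of Serinc4 on the same strand, and 57.2% of its transcript stretches of 100 bases occur in Serinc4 transcripts. Serinc4, a gene of the serine incorporator family, was at 109 CPM in mock and 108 in BMH21. The sources used here do not state how reads shared by overlapping genes were counted, and the Ell3 level is uncertain for that reason.

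Within NELF, Nelfcd and Nelfa fell, and Nelfb and Nelfe did not pass the test. Nelfcd encodes the subunit that exists in a pair of alternative forms, C and D. Nelfcd (ENSMUSG00000016253, chromosome 2, 174415804 to 174427502) was at 26.2 and 27.4 CPM in mock and 21.2 and 19.5 in BMH21. Both BMH21 libraries lay below both mock libraries. Group means were 26.8 ± 0.836 and 20.4 ± 1.23 CPM (SD, n = 2 each). On the log2 scale this is -0.40 ± 0.09 (SE), for which edgeR gave an adjusted p of 3.89e-04. The call held under all 10 alternatives (-0.46 to -0.34).

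Nelfa encodes the subunit that contacts the polymerase and lies in the region deleted in Wolf-Hirschhorn syndrome in humans. Nelfa (ENSMUSG00000029111, chromosome 5, 33897916 to 33936413) was at 79.7 and 79.3 CPM in mock and 66.7 and 66.9 in BMH21. The replicates of a group lay within 0.01 of each other on the log2 scale, far less than the distance between the groups. The log2 fold change was -0.25 ± 0.05 (SE), with an edgeR adjusted p of 1.17e-04, and the call held under all 10 alternatives (-0.30 to -0.25). Exons of Nsd2 on the opposite strand overlap 1.52% of its exon bases.

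Nelfb encodes a scaffold subunit, also known as a cofactor of BRCA1. Nelfb (chromosome 2, 25199712 to 25211489) was at 17.1 and 17.7 CPM in mock and 13.9 and 15.4 in BMH21, without overlap. Its log2 fold change of -0.25 ± 0.11 (SE) has nearly the size of that of Nelfa, but with fewer counts (459 to 719 per library, against 2209 to 3344) it was not called (edgeR adjusted p = 0.0758). It was called under upper quartile scaling (-0.29, adjusted p = 0.0285). Nelfe encodes the RNA-binding subunit. Nelfe (chromosome 17, 34850391 to 34856372) was at 75.8 and 79.0 CPM in mock and 76.6 and 76.9 in BMH21, both inside the mock range (log2 fold change -0.01 ± 0.05 (SE), edgeR adjusted p = 0.918).

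The subunits of NELF work in equal numbers in the complex, so their proportions were compared within libraries, a comparison chosen after the values were seen. The log2 ratio of Nelfcd to Nelfe counts was -1.53 and -1.53 in mock and -1.85 and -1.98 in BMH21, a difference of -0.39. The ratio of Nelfa to Nelfe was 0.07 and 0.01 in mock and -0.20 and -0.20 in BMH21, a difference of -0.24, and that of Nelfb to Nelfe differed by -0.24. In all 3 ratios the groups do not overlap, and each exact two-sided permutation p was 0.333, the smallest possible. These ratios do not depend on how the libraries were scaled. mRNA ratios say nothing of the protein complex, which was not measured.

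SPT5 is the large DSIF subunit and a main target of P-TEFb, and its mRNA fell slightly. Supt5 (ENSMUSG00000003435, chromosome 7, 28314891 to 28338746) was at 328 and 344 CPM in mock and 314 and 313 in BMH21. The BMH21 libraries lay below both mock libraries, though the mock libraries differed from each other about as much as the nearer one did from BMH21. The log2 fold change was -0.10 ± 0.03 (SE), a level of 0.934 times mock, with an edgeR adjusted p of 0.00648. Without mock replicate 2, the higher mock library, it was -0.07 and no longer called (adjusted p = 0.286), while the other 9 alternatives kept the call (adjusted p of 3.01e-05 to 0.0216). An antisense gene overlaps 7.51% of the Supt5 exon bases, and the sources used here do not state whether the counting used strand.

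SPT4 is the small zinc-finger partner of SPT5. Supt4a (chromosome 11, 87737552 to 87743623) was at 40.6 and 38.4 CPM in mock and 46.3 and 43.0 in BMH21, without overlap. Its log2 fold change of 0.17 ± 0.07 (SE) did not pass the test (edgeR adjusted p = 0.0551). It passed narrowly with the stricter filter (0.17, adjusted p = 0.0419) and without BMH21 replicate 2 (0.22, adjusted p = 0.0453). The log2 ratio of Supt4a to Supt5 counts, also compared after the values were seen, was -3.01 and -3.16 in mock and -2.76 and -2.86 in BMH21, a difference of 0.28 with no overlap (exact two-sided permutation p = 0.333, the smallest possible). Of the stretches of 50 bases in Supt4a transcripts, 18.3% also occur in transcripts of its near-copy Supt4b, which was not analysed here, and 6.73% of those of 100 bases do, so the Supt4a level is uncertain to that extent.

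Supt6 (chromosome 11, 78206746 to 78245987) was at 231 and 249 CPM in mock and 249 and 254 in BMH21, and the groups overlap. Its log2 fold change was 0.07 ± 0.03 (SE), edgeR adjusted p = 0.119. It was called only without mock replicate 2 (0.12, adjusted p = 0.0318), the same library whose removal ended the call of Supt5.

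**Figure D2:**
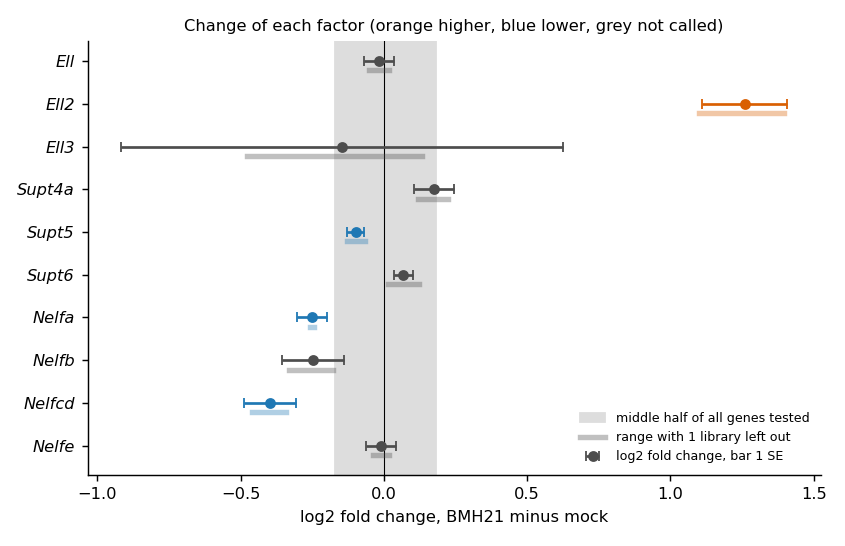
Log2 fold change of each factor (points, bars 1 SE) with the range over the 4 fits that leave out 1 library (pale bars); the grey band runs between the quartiles of all genes tested, -0.17 and 0.18. Ell2 at 1.26 lies far outside the band, Nelfcd, Nelfa and Nelfb lie below it, and the wide bar of Ell3 reflects its 8 to 12 counts per library.

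Of the 10 factors, 2 had BMH21 values wholly above mock (Ell2 and Supt4a) and 4 wholly below (Supt5, Nelfa, Nelfb and Nelfcd). Over all genes tested 30.9% lay wholly above and 29.9% wholly below, so a lack of overlap alone is common with 2 libraries a group. The 10 mRNAs covered a wide range of levels when compared per kb of merged exon. Supt5 was the most abundant at 58.3 ± 1.90 CPM per kb in mock, followed by Supt4a at 41.9 ± 1.64, Nelfe at 37.3 ± 1.08 and Supt6 at 33.8 ± 1.79 (SD, n = 2 each). Ell stood at 23.8, Nelfa at 20.1, Nelfcd at 9.31, Nelfb at 5.07, Ell2 at 0.521 and Ell3 at 0.138 CPM per kb in mock. The NELF subunits thus differed from each other several-fold at the mRNA level although they share a complex, with Nelfe highest and Nelfb lowest. The order of the 10 was the same in BMH21, and in both groups all 9 neighbouring pairs in the order had libraries that do not overlap. By mean transcript length Supt4a and Nelfe change places, and the other ranks stay.

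**Figure D3:**
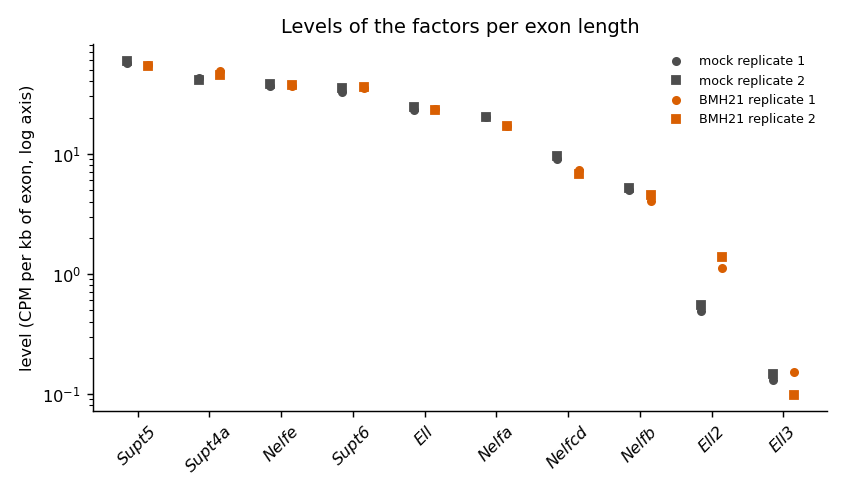
Level of each factor in CPM per kb of merged exon (vertical log axis) by library, ordered by the mock mean. Levels run from 58.3 for Supt5 to 0.138 for Ell3 in mock, and Ell2 is the one factor whose BMH21 libraries stand clearly apart on this axis (0.521 in mock and 1.24 in BMH21 on average).

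The partners of these factors were read from the same fit in 5 lists. The lists were chosen by known roles, but with earlier results of these data at hand. Of 43 names 41 were analysed (Wdr61 is an older symbol of Skic8) and 40 tested: 16 rose, 3 fell and 21 were not called. That is 40.0% higher and 7.5% lower, beside 16.5% and 12.5% over all genes tested; the median log2 fold change was 0.08 against 0.00. The median level of the partners in mock was 38.7 CPM, against 13.1 over all genes tested; the part of this difference in the counts of calls was not tested. Under upper quartile scaling, which moved the median of all genes by -0.05, 10 partners rose and 6 fell, and over all genes 42.1% of the calls were higher in place of 56.9%. The count of higher partners was 8 without mock replicate 1 and 9 without BMH21 replicate 2, where 5 fell.

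All 3 tested genes of P-TEFb rose. Cdk9, the kinase itself, was at 39.4 and 37.8 CPM in mock and 45.8 and 46.4 in BMH21 (log2 fold change 0.25 ± 0.07 (SE), edgeR adjusted p = 0.00320). Its cyclin genes Ccnt1 (23.6 to 29.1 CPM, log2 fold change 0.30) and Ccnt2 (25.6 to 30.6 CPM, 0.26) rose too. Ccnt1 lost its call without mock replicate 2 (0.27) and Ccnt2 without mock replicate 1 (0.25) or BMH21 replicate 2 (0.24). An antisense gene overlaps 7.59% of the Ccnt1 exon bases. On the side of the 7SK particle, which keeps P-TEFb inactive, Mepce, the enzyme that caps 7SK RNA, fell from 134 to 119 CPM (-0.18 ± 0.04 (SE), edgeR adjusted p = 5.90e-04). Hexim1 encodes an inhibitor protein that binds P-TEFb within the particle. It was at 7.98 and 8.61 CPM in mock and 6.58 and 8.80 in BMH21, with overlapping groups (-0.10 ± 0.15 (SE), edgeR adjusted p = 0.687). Its paralog Hexim2 was at 24.4 and 24.3 CPM in mock and 21.9 and 20.8 in BMH21, without overlap but not called (-0.19, edgeR adjusted p = 0.127). Larp7, the most abundant gene of the list (490 CPM in mock and 485 in BMH21), was not called. Of the 8 genes in the list 3 rose, 1 fell and 4 were not called, beside 16.5% higher and 12.5% lower over all genes tested.

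Of 10 genes of the super and little elongation complexes, in which ELL proteins work, 2 rose and 1 fell. The shares over all genes tested were 16.5% and 12.5%. Ice2, a subunit of the little elongation complex that acts with ELL on small nuclear RNA genes, rose from 25.4 and 26.2 CPM in mock to 42.1 and 47.1 in BMH21. It had the smallest p among the partners, with a log2 fold change of 0.79 ± 0.08 (SE), 1.73-fold (edgeR adjusted p = 3.07e-13). Aff4, the scaffold of the super elongation complex, rose from 331 to 384 CPM (0.22), and Mllt1, which encodes the chromatin reader ENL, fell from 158 to 135 CPM (-0.23). The calls of Ice2, Aff4 and Mllt1 held under all 10 alternatives.

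Of 6 tested genes of the PAF1 complex, which binds elongating polymerase and promotes histone marks, 3 rose and 0 fell. The shares over all genes tested were 16.5% and 12.5%. Rtf1 rose by 0.49 on the log2 scale, between means of 27.2 ± 3.35 and 38.1 ± 1.34 CPM (SD, n = 2 each), and this call held under all 10 alternatives. Leo1 (0.21) and Paf1 (0.17) rose by little; Leo1 kept its call in 5 of the 10 alternatives and Paf1 in 4, and neither did in DESeq2 (0.21 and 0.17) or under upper quartile scaling (0.17 and 0.13). Leo1 also lost it without mock replicate 1 (0.20), BMH21 replicate 1 (0.20) or BMH21 replicate 2 (0.22), and Paf1 without either mock replicate (0.18 and 0.16) or BMH21 replicate 2 (0.09), and with the replicate number as a block (0.17, edgeR adjusted p = 0.0706). Among SPT6 partners, FACT, TFIIS and Elongin genes 4 of 10 rose and 1 fell, beside the same shares over all genes tested. Polr2m, whose protein GDOWN1 binds polymerase II, rose from 32.1 to 44.3 CPM (0.47) under all alternatives. Tcea1, which encodes a form of TFIIS, the factor that rescues backtracked polymerase, rose from 2.44 to 4.48 CPM (0.89). It lost its call without mock replicate 1 (0.66). Exons of Gm37988 overlap 196 of its exon bases on the same strand. Its paralog Tcea2, far more abundant at 349 CPM in mock and 347 in BMH21, was not called (-0.01, edgeR adjusted p = 0.896). A further paralog, Tcea3, was too low to be tested. Eloc, an Elongin subunit, rose by 0.19 and kept its call in 6 alternatives; DESeq2 (0.19), upper quartile scaling (0.15) and the fits without mock replicate 1 (0.16) or BMH21 replicate 2 (0.12) did not call it. Iws1, a partner of SPT6, fell (-0.14) but not in DESeq2 (-0.15) or without mock replicate 2 (-0.09) or BMH21 replicate 1 (-0.10).

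Kinases of the polymerase II tail other than P-TEFb had 4 of 6 genes higher and 0 lower. The shares over all genes tested were 16.5% and 12.5%. Cdk13 rose from 106 and 106 CPM in mock to 126 and 132 in BMH21 (log2 fold change 0.29) and Cdk12, its relative, from 190.5 to 221 CPM (0.22), both under all 10 alternatives. Their cyclin gene Ccnk rose by 0.07, a call lost under upper quartile scaling (0.02) and without mock replicate 1 (0.05) or BMH21 replicate 2 (0.04). Ccnk was at 980 CPM in mock, against a median of 13.1 over all genes tested. Cdk7, the kinase of TFIIH, rose by 0.24 but kept its call in 3 of the 10 alternatives and lost it with any 1 library left out (0.20 to 0.28) and with the replicate number as a block (0.24, edgeR adjusted p = 0.0509).

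**Figure D4:**
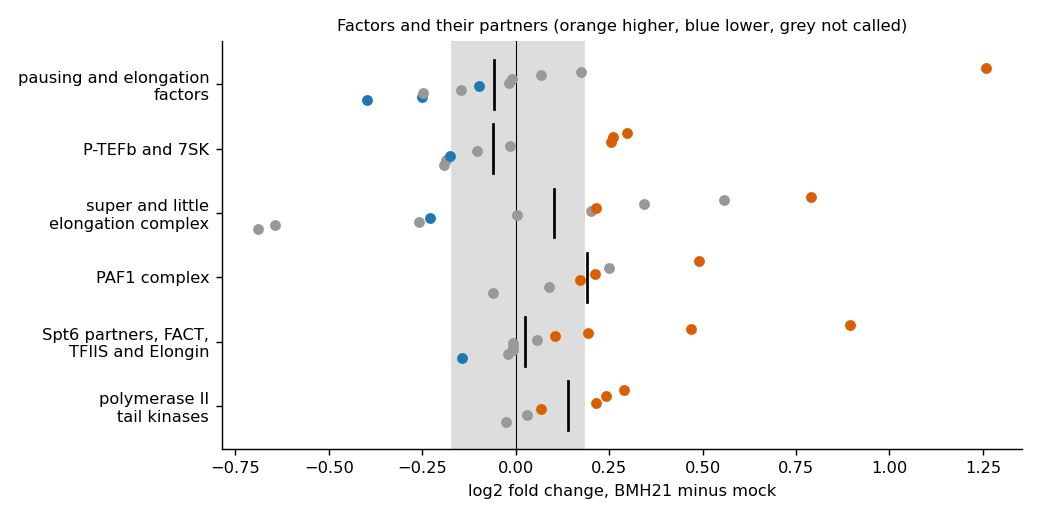
Log2 fold change (horizontal axis) of the 10 factors and of the 40 tested partners by list; points are genes, black lines list medians, and the grey band runs between the quartiles of all genes tested, -0.17 and 0.18. Points called higher outnumber those called lower among the partners (16 against 3), while the factors themselves have 1 higher (Ell2) and 3 lower. Of all genes tested 16.5% were called higher and 12.5% lower.

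Genes known for strongly paused polymerase, mostly immediate-early and heat-shock genes, were listed as a set of 14 targets. Most of them were hardly expressed: 13 were analysed, 5 passed the filter on low counts, and their summed level was 26.7 to 29.7 CPM in the 4 libraries. Jun, a subunit of the transcription factor AP-1, was the 1 gene called, at 10.1 and 10.3 CPM in mock and 6.97 and 7.67 in BMH21 (log2 fold change -0.48 ± 0.14 (SE), edgeR adjusted p = 0.00689). It lost the call without BMH21 replicate 1 (-0.41), and an antisense gene overlaps 7.28% of its exon bases. None of the 5 was called higher in edgeR's test and 1 was called lower, beside 16.5% and 12.5% over all genes tested. BMH21 values lay wholly above mock for 2 of the 5 and wholly below for 2, beside 30.9% and 29.9%. With 5 genes tested, these counts cannot be set apart from those shares.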

How the data were processed

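The 4 libraries, 2 mock and 2 BMH21, were made with a kit for stranded mRNA from RNA extracted in TRIzol, per the labels' protocols. The submitters' processing notes name the build mm10 and the tools fastp, STAR, SAMtools, featureCounts and DESeq2. The authors deposited raw read counts per gene, from which all tests start. The authors also deposited size-factor-normalized values (signal), log2 fold changes, a Wald score and p-values; log2 fold changes recomputed with DESeq2 lay within 2.83e-05 of these. Positions in the table differ from GRCm38, so GENCODE M21 positions are given, matched by gene identifier.

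Genes were kept by filterByExpr (minimum count 10; 13793 of 15733, all 10 factors among them), scaled by TMM and tested with edgeR 4.0.16 in R 4.3.3, with group alone; no sample was dropped. The test was tested on simulated data. Calls are at an adjusted p under 0.05. The SE is the log2 fold change divided by the square root of F, an approximation. With 2 libraries a group, p-values lean on the spread shared across genes. Replicate libraries differed beyond sampling noise (chi-square over its degrees of freedom: 3.23 for mock, 3.78 for BMH21). Levels per kb used merged exon length. Alternatives were other scalings, filters, DESeq2 1.42.0, the replicate number as a block, and leaving out each library. Named are all factors, Cdk9, Ccnt1 and Hexim1, and up to 4 called genes of smallest p per partner or target list. Hexim2, Larp7, Tcea2 and Tcea3 are named beside their relatives or partners, and marker genes by call or abundance. The factors and lists were chosen with earlier results of these data known.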

Additional observations from a re-analysis of the deposited data

How the results depend on the processing

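Over 98 refits of the 10 factors, 90 kept direction and side of the threshold. The 3 changes of sign were in factors at or near no change: Ell (-0.051 to 0.019 with 1 library left out), Nelfe (-0.039 to 0.018) and Ell3 (-0.48 to 0.13). Hexim1 (-0.33 to 0.086) also changed sign with 1 library left out. The number of factors called higher was 2 with the stricter filter (at least 1 CPM in every library), which tests fewer genes, and 1 to 2 with 1 library left out; the number called lower was 4 under upper quartile scaling (Nelfb added) and 2 to 3 with 1 library left out. Partners called higher were 10, and lower 6, under upper quartile scaling, and 8 to 14 higher and 2 to 5 lower with 1 library left out. The cause was not tested. Where leaving out a library left a group with 1 sample, that sample is assumed to vary like the other group. The ratio of the highest to the lowest level per kb in mock was 421 by merged exon length and 698 by mean transcript length. The lowest is Ell3, whose level is uncertain because most of its exon bases are shared with Serinc4. With the replicate number as a block, Ell2 was at 1.25, and the counts of factors called were 1 higher and 3 lower as without it; partners called higher were 14 in place of 16, with Paf1 (0.17, adjusted p = 0.0706) and Cdk7 (0.24, adjusted p = 0.0509) lost, and 3 were lower as without it. Over all genes 2189 were higher and 1595 lower, against 2282 and 1731. Replicates of the same number did not deviate together (correlation across genes 0.01), so the numbers are not taken as pairs. DESeq2 gave no adjusted p for Ell3. Ell3 is limited by its 8 to 12 counts, and the part that depth and the counting of shared reads have in them was not tested.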
